A study of Homo sapiens with 10 samples.

Results

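Wide H3K27Ac domains were the stretches of MDAMB231 chromatin in which the deposited list of H3K27Ac peaks ran without a break for 10 kb or more on chromosomes 1 to 22. They were chosen by measured values, since a peak was taken when its end minus its start reached 10000 bp, and 513 of the 36402 H3K27Ac peaks on these chromosomes were taken (37495 peaks in the whole list). Their widths and H3K27Ac scores are therefore given only as a description.

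MDAMB231 is a human triple-negative breast cancer cell line, grown here in DMEM with FBS and given no treatment. Nucleosome-depleted DNA was isolated by FAIRE-seq, and DNA bound to H3K4me1, H3K4me3 or H3K27Ac was isolated by ChIP-seq, with 2 samples for each of the 4 assays, 1 FAIRE input and 1 ChIP input. A single list was deposited for each mark and for FAIRE. It pools 2 assays that the authors call independent, so it carries no error between replicates. Nothing in the labels says that the 2 samples came from separate cultures. The lists held 37495 H3K27Ac, 26771 H3K4me1, 18019 H3K4me3 and 46552 FAIRE peaks, and the number of reads behind them was not analysed here.

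Acetylation of H3K27 marks active promoters and active enhancers, whereas H3K4me3 is concentrated around the start sites of transcribed genes and H3K4me1 flanks enhancers. FAIRE recovers DNA from which nucleosomes have been displaced, as happens where transcription factors bind. Long unbroken stretches of H3K27Ac are known to arise where neighbouring enhancers lie close together, and where acetylation spreads from a promoter into the body of an active gene.

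The sequences of 7 windows of 200 bases are given first, because they show open DNA in the widest domains of both kinds described here. Each window is centred on the middle of the interval listed for the highest FAIRE peak of its domain. The point of highest signal within that interval was not used. All windows are read from the plus strand of GRCh37. The 4 widest domains without an H3K4me3 peak are shown first, followed by 3 of the 4 widest with one. Capitals mark the AP-1 motif TGACTCA, or TGAGTCA on the other strand, and the GC box GGGCGG, or CCGCCC on the other strand. The letters of these motifs cannot overlap each other.
ACTN4 domain, chr19:39184026-39184225: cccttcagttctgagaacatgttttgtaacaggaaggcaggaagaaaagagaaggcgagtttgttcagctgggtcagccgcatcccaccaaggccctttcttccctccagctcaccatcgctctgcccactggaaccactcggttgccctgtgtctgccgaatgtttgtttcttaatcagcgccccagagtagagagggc
domain upstream of HMGA2, chr12:66050698-66050897: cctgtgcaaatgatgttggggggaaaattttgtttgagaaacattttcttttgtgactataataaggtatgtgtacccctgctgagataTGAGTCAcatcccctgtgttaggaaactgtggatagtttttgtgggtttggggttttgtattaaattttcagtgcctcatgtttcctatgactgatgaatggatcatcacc
MICAL2 domain, chr11:12204965-12205164: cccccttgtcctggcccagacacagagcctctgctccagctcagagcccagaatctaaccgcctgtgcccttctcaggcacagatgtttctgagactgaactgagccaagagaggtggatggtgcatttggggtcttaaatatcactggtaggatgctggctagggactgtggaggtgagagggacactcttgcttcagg
NRP1 domain, chr10:33553270-33553469: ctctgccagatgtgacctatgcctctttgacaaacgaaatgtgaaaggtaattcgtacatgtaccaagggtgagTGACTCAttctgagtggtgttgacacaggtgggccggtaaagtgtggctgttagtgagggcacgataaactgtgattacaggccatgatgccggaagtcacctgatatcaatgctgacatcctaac
LINC-PINT domain, chr7:130598300-130598499: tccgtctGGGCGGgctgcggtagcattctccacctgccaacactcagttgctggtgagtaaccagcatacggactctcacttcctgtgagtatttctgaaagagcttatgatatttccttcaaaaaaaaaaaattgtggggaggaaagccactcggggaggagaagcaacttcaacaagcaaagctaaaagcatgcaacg
BCL2L1 domain, chr20:30283995-30284194: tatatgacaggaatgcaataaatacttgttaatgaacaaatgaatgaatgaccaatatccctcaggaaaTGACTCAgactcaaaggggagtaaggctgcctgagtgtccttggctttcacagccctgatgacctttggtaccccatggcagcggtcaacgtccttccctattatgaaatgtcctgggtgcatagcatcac
CAPN2 domain, chr1:223894886-223895085: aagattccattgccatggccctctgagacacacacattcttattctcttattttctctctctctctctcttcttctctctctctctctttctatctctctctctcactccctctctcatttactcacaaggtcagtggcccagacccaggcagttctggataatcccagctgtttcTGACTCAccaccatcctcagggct
An AP-1 motif was present once in 4 of the 7 windows, those of NRP1, BCL2L1, CAPN2 and the domain upstream of HMGA2, and a GC box once in the LINC-PINT window. The ACTN4 and MICAL2 windows held neither set of letters. The windows in MICAL2, NRP1, BCL2L1 and CAPN2 lay in introns of those genes. The ACTN4 window lay in an intron of ACTN4 and over an exon of an unnamed long non-coding RNA, and the window upstream of HMGA2 lay in an intron of another. The LINC-PINT window lay over an exon of the non-coding RNA LINC00513 and was under an H3K4me3 peak. Over the 300 bases around the centres of all 44697 FAIRE peaks on chromosomes 1 to 22, AP-1 letters were in 30.7% and the GC box in 11.6%.

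The wide domains made up 1.41% of the H3K27Ac peaks and 6.20% of their summed length, 7.24 Mb. Their median width was 12.3 kb, with quartiles of 11024 and 15010 bp, against 2.68 kb for all H3K27Ac peaks. Few were much wider, as 51 reached 20 kb and 13 reached 30 kb, and the widest measured 51.1 kb. At the threshold itself, the domains just inside both measured 10001 bp and lay 10.6 kb from PPP1R12B and 10.5 kb from MOK, whereas the peaks just outside measured 9999 bp, at ARL6IP5 and UBA3, and 9983 bp, at TPCN1. Their scores, 10 times the −log10 of the p-value from MACS, were 3030.67 and 3100 inside and 2741.66 and 2764.43 outside. A score of 3100 or more was reached by 375 wide domains (73.1%), so most could not be ranked by score.

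**Figure D1:**
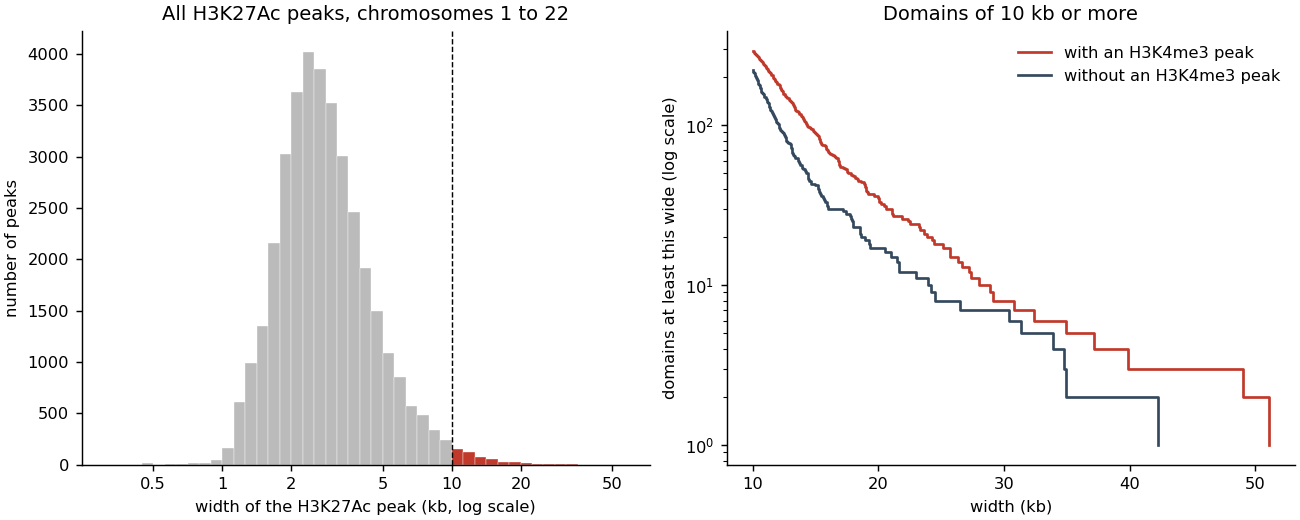
The left panel shows the number of H3K27Ac peaks on chromosomes 1 to 22 by width (kb, log scale), with the 513 domains of 10 kb or more in red to the right of the dashed line. The right panel shows how many domains were at least a given width (kb) on a log scale, for the 291 with an H3K4me3 peak (red) and the 222 without (dark line), and both curves fall steeply from 10 kb.

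Before the domains were described, the line was checked against marker genes. H3K27Ac peaks lay at a start site of 5 of 7 genes known to be active in mesenchymal-like cells, namely VIM, AXL, CD44, CAV1 and ZEB1, but not at CDH2 or TWIST1, and such a peak was present for 62.9% of all protein-coding genes. Of 7 luminal and epithelial genes, ESR1, PGR and GRHL2 had no H3K27Ac peak at a start site, although ESR1 and PGR had an H3K4me3 peak, whereas ERBB3, CDH1, EPCAM and GATA3 had H3K27Ac peaks of 2.83, 2.48, 3.16 and 2.65 kb. The start site of any transcript was counted, so a peak need not lie at the most upstream start site of its gene. The CDH1 peak, at chr16:68856241-68858720, held no H3K4me3, whereas those of ERBB3, EPCAM and GATA3 did. Thus 4 genes expected to lack the mark carried it in a narrow peak at some start site. Both counts, 5 of 7 and 4 of 7, were near the share of all protein-coding genes. Presence of a peak therefore did not separate the mesenchymal-like genes from the luminal and epithelial ones, and no luminal cells were analysed here. The leukocyte, endothelial and liver markers PTPRC, CD3E, PECAM1, CDH5 and ALB had no peak of any list at a start site. AXL, a receptor tyrosine kinase, was the only marker gene inside a wide domain.

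Almost every wide domain was open, and most carried a methylated form of H3K4. A FAIRE peak shared at least 1 base with 506 of the 513 (98.6%, 95% Wilson interval 97.2 to 99.3), against 67.9% of all H3K27Ac peaks. An H3K4me1 peak lay in 358 (69.8%, 65.7 to 73.6), against 55.3%, and an H3K4me3 peak in 291 (56.7%, 52.4 to 60.9), against 38.3%. A start site of a protein-coding gene lay in 280 (54.6%, 50.3 to 58.8), against 33.8%. When only the most upstream start site of each gene was counted, the share fell to 33.5% of wide domains, against 24.98% of all H3K27Ac peaks. A wide domain has more sequence in which a peak or start site can fall than a narrow one, so these shares rise with width of themselves, and values per length are given below. The intervals cover counting error over domains only.

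The marks divided the domains into 4 groups. Both H3K4 marks were present in 201, H3K4me3 alone in 90, H3K4me1 alone in 157, and neither in 65, of which 64 held a FAIRE peak. All 4 lists met in 199 domains. FOSL1 and EPHA2 were among the genes whose domain carried both H3K4 marks. BCL2L1 and CAPN2 had H3K4me3 alone, WWTR1 had H3K4me1 alone, and none of the wide domains with a start site of MICAL2 or MYH9 had either.

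Over the width classes of H3K27Ac peaks, the share with any FAIRE peak went up while FAIRE peaks per unit of length went down. Peaks under 2 kb, of 2 to 5 kb, of 5 to 10 kb and of 10 kb or more numbered 8465, 23804, 3620 and 513. They held 3.19, 2.74, 2.68 and 2.51 listed FAIRE peaks per 10 kb, respectively, with peaks that meet end to end counted separately. H3K4me1 peaks covered 47.7%, 50.9%, 62.8% and 53.4% of their length, and H3K4me3 peaks 19.6%, 37.4%, 31.0% and 24.7%. A FAIRE peak that crosses an edge is counted whole, which raises the density of short peaks, and the length under FAIRE peaks was nearly level from 2 kb upward, at 29.4%, 26.5%, 26.4% and 25.6%. The wide domains had less H3K4me1 for their length than the class next to them.

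Peaks with and without H3K4me3 followed different courses over these classes. Among peaks with H3K4me3, FAIRE density went from 1.74 per 10 kb under 2 kb to 2.36 in the wide domains, and H3K4me1 coverage from 11.1% to 47.9%. In peaks without H3K4me3, density went from 3.60 down to 2.73 per 10 kb, and H3K4me1 coverage was 57.9%, 76.4%, 82.9% and then 61.2%. The values of the 2 kinds were therefore nearer to each other at 10 kb or more than in any narrower class. The share of wide domains with an H3K4me1 peak was about the same in both, at 69.1% with H3K4me3 and 70.7% without, whereas it was 54.1% and 87.2% among peaks of 5 to 10 kb and 23.7% and 78.1% among those of 2 to 5 kb.

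**Figure D2:**
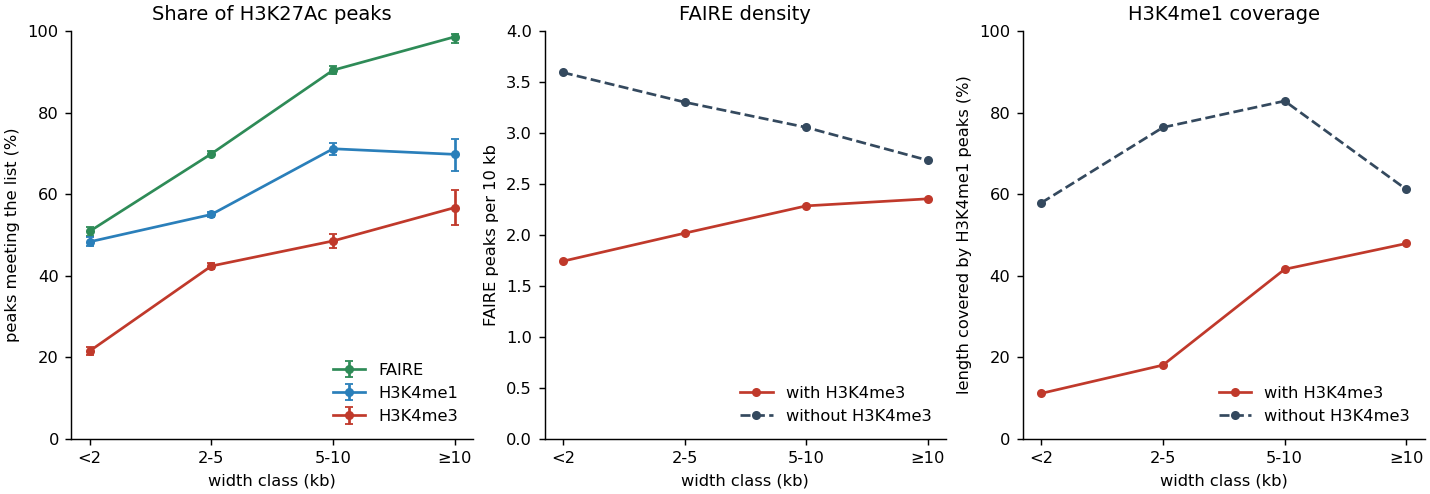
Width class of H3K27Ac peaks (kb) against the percent of peaks that share a base with each list (left, bars are 95% Wilson intervals), FAIRE peaks per 10 kb (middle) and the percent of length under H3K4me1 peaks (right), the last 2 panels split by H3K4me3. FAIRE reached 98.6% of wide domains, and at 10 kb or more the peaks with and without H3K4me3 stood at 2.36 and 2.73 FAIRE peaks per 10 kb and at 47.9% and 61.2% H3K4me1 coverage.

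Most of the 291 domains with H3K4me3 held a promoter, as did most peaks of 2 to 10 kb with the mark. These domains measured 12.9 kb at the median and 4.27 Mb in all, and 225 (77.3%) held a start site of a protein-coding gene, 168 of them the most upstream start of the gene. Among H3K27Ac peaks of 2 to 5 and 5 to 10 kb with H3K4me3, 81.5% and 82.2% held a start site. H3K4me3 peaks covered 41.9% of their length. The mark filled at least 75% of 36 domains and under 25% of 83, so acetylation often ran far beyond it. Of the 66 without a protein-coding start site, 34 held a start site of another kind of gene.

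Within these domains, the bases under H3K4me3 differed from those beside it. Under H3K4me3 lay 1.79 Mb, of which H3K4me1 peaks covered 35.9%, with 2.67 FAIRE peak centres per 10 kb. Beside it lay 2.48 Mb, of which H3K4me1 covered 56.6%, with 2.13 centres per 10 kb. In H3K27Ac peaks of 2 to 10 kb with H3K4me3, the same values were 17.2% and 2.26 under the mark and 52.5% and 1.37 beside it. In those of 5 to 10 kb alone they were 29.2% and 2.52, and 63.3% and 1.87, so overlap of the 2 methylated forms went up with width below 10 kb too. The lists were made from populations of cells, so marks on the same nucleosome and marks in different cells cannot be told apart.

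The 222 domains without H3K4me3 were mostly inside genes or between them. They measured 11.7 kb at the median and 2.96 Mb in all, and 55 (24.8%) held a protein-coding start site, which was the most upstream start of a gene in 4. A further 85 lay in the body of a protein-coding gene without such a start site, and 82 lay outside these bodies. For these 167 domains, the nearest protein-coding start site was 35.1 kb away at the median (quartiles 13.4 and 83.3 kb) and in 37 more than 100 kb away, although 40 held a start site of another kind of gene. The most remote domain, 731 kb from CHRM3, a muscarinic acetylcholine receptor gene, held 2 H3K4me1 and 4 FAIRE peaks. H3K4me1 often filled such domains, with a median of 94.1% of a domain and at least 75% in 147, but it was missing from 65.

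The contrast in H3K4me1 between the 2 kinds depended on width. Among domains of 10 to 15 kb, H3K4me1 covered 54.7% of the length of the 203 with H3K4me3 and 71.6% of the 181 without. Among those of 15 kb or more it covered 38.8% of 88 and 35.7% of 41, so the difference over all wide domains, 13.3 percentage points, changed sign. FAIRE density differed by 0.378 per 10 kb over all wide domains and by 0.102 at 15 kb or more. Of the 51 domains of 20 kb or more, 25 held H3K4me1, which covered 27% of their length, while all 51 held a FAIRE peak and 35 held H3K4me3. The widest domains thus all held open sites but carried less H3K4me1 than the others.

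Presence of H3K4me1 also moved with base composition. In the 171 domains lowest in GC (32.9 to 43.2%), 154 held an H3K4me1 peak (90.1%, 84.7 to 93.7). In the 171 of middle GC, 127 did (74.3%, 67.2 to 80.2), and in the 171 highest in GC (49.2 to 67.5%), 77 did (45.0%, 37.8 to 52.5). H3K4me3 ran the other way, at 44.4%, 56.1% and 69.6%. FAIRE peaks numbered 2.70, 2.76 and 2.08 per 10 kb, so their density too was lowest where GC was highest. The part of base composition, in the cells or in the sequencing, was not tested. By chromosome, H3K4me1 was in 23 of 24 wide domains on chromosome 4, but in 6 of 17 on chromosome 20, 8 of 16 on chromosome 19 and 18 of 36 on chromosome 17. Over all H3K27Ac peaks of these chromosomes the shares were 71.9%, 46.4%, 18.9% and 42.6%, so of the 4 only chromosome 20 had a lower share in its wide domains (35.3%) than over all its peaks. Chromosome 10 had the highest share of its H3K27Ac peaks in the wide class, 45 of 1813 (2.48%), and chromosome 17 the most wide domains per Mb, 0.443.

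The 10 widest domains showed all of these arrangements. The widest, 51.1 kb at chr11:122003864-122054923, held the start sites of MIR100HG, MIR100 and MIRLET7A2, a host gene and 2 of its microRNAs, with 8 FAIRE peaks and H3K4me3 over 42.6% of its length. H3K4me1 covered 14.5% of it, and the nearest protein-coding start site, of BLID, lay 16.9 kb away. The next, 49.0 kb at chr7:130557071-130606112, held starts of the non-coding genes LINC-PINT and LINC00513 and lay 138 kb from KLF14, a zinc finger factor gene. It had 12 FAIRE peaks, with H3K4me3 over 21.9% and H3K4me1 over 18.5%. Non-coding genes therefore occupied the first 2 places.

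ACTN4, which encodes an actin crosslinking protein, held the next place, with 42.2 kb at chr19:39164373-39206620. This domain had 5 FAIRE peaks and no peak of either H3K4 mark. A neighbouring domain of 25.7 kb, 1470 bp away, held the most upstream start site of ACTN4 and had H3K4me3 over 26.3% of its length with 6 FAIRE peaks. At BCL2L1, an inhibitor of apoptosis, the domain measured 39.8 kb at chr20:30273077-30312918 and had H3K4me3 over 23.4% and 9 FAIRE peaks. CAPN2, a calcium-dependent protease gene, had 37.2 kb at chr1:223885292-223922475, with H3K4me3 over 16.0% and again 9 FAIRE peaks. H3K4me1 was missing from all of these domains of ACTN4, BCL2L1 and CAPN2. Their H3K27Ac scores were low, at 239.59 and 468.21 for ACTN4, 128.68 for BCL2L1 and 167.49 for CAPN2. In the wide domains with a score under 500, H3K4me1 covered 12.5% of the length, against 53.4% in all wide domains. Whether the low score and the missing mark are related was not tested.

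At chr12:66033594-66068517, a domain of 34.9 kb lay 149.7 kb from HMGA2, which encodes an architectural chromatin protein. It was the widest domain with abundant H3K4me1, which covered 89.9% of it in 4 peaks, and it held 7 FAIRE peaks and no H3K4me3. The FOSL1 domain, 34.9 kb at chr11:65654244-65689161, was of the opposite kind, with H3K4me3 over 80.8% in 3 peaks and H3K4me1 over 28.0%. It held 8 FAIRE peaks and the start sites of FOSL1, an AP-1 subunit, and of FIBP, CCDC85B, C11orf68 and DRAP1. These 2 domains differed by 6 bp in width and held nearly the same number of FAIRE peaks, with H3K4me1 over most of the former and H3K4me3 over most of the latter.

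MICAL2, which encodes an enzyme that oxidises actin, had 34.8 kb at chr11:12177201-12211989 with 9 FAIRE peaks and no H3K4 mark. NRP1, a co-receptor for semaphorins and VEGF, had 33.9 kb at chr10:33533598-33567502 with 7 FAIRE peaks, H3K4me1 over 33.0% and no H3K4me3, while its most upstream start site lay in another wide domain (13.8 kb) with H3K4me3 over 71.2%. PLEC, which encodes the cytolinker plectin, had 32.3 kb with 4 FAIRE peaks, H3K4me3 over 77.4% and no H3K4me1. In 7 of the 10 widest domains, then, at least 1 of the H3K4 marks was missing.

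**Figure D3:**
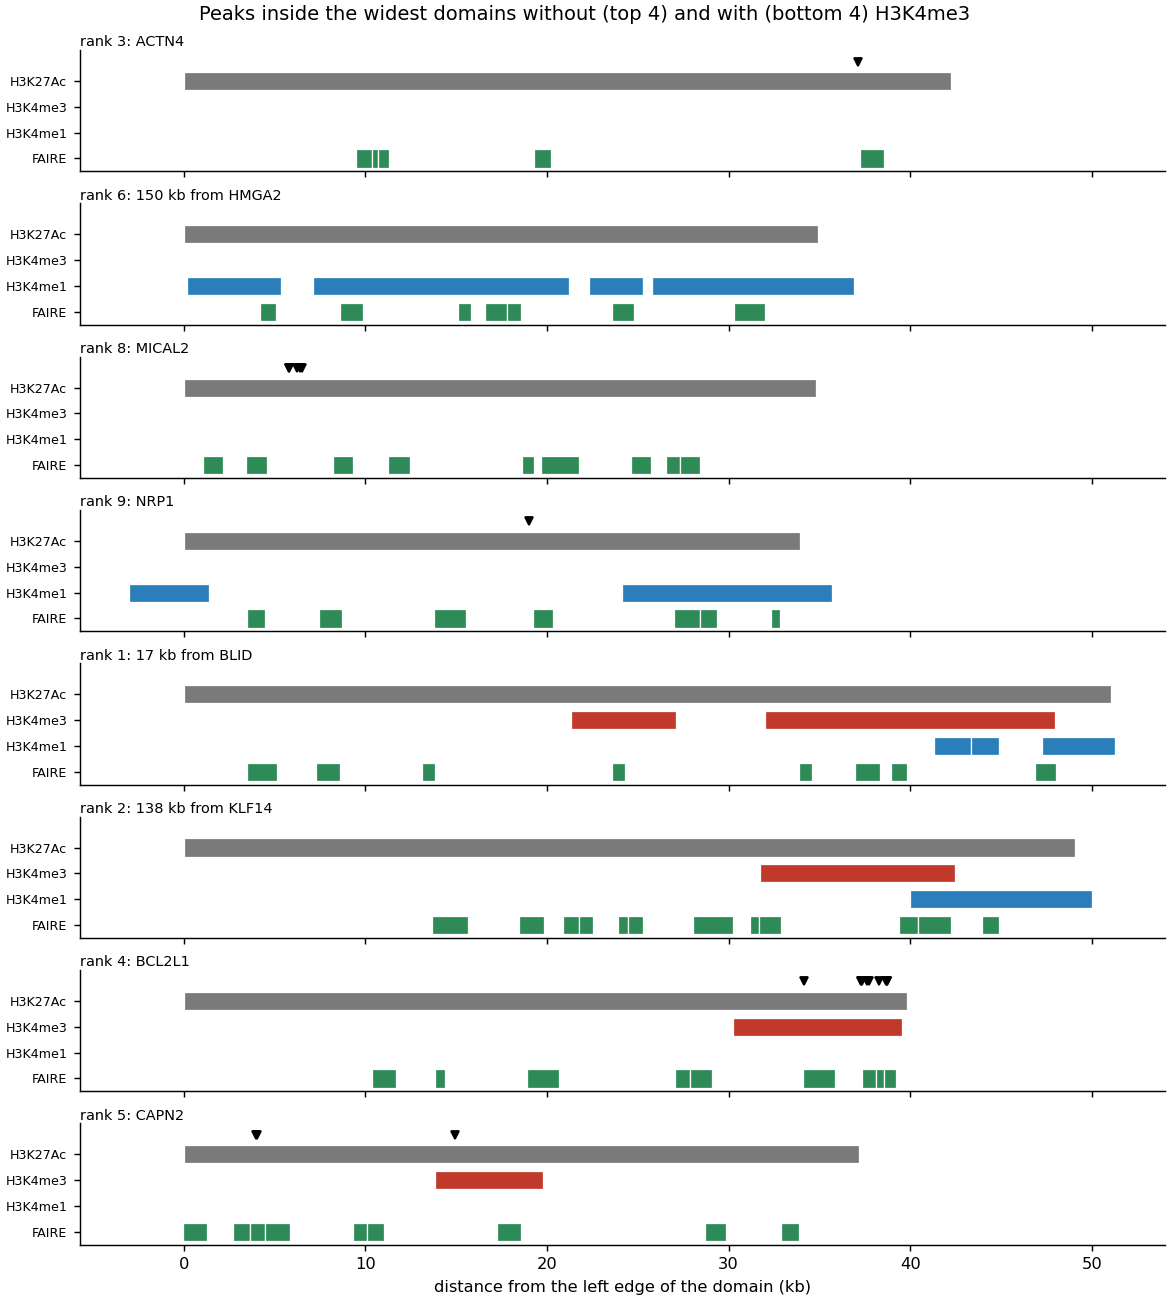
Peaks of H3K27Ac, H3K4me3, H3K4me1 and FAIRE against the distance in kb from the left edge of the domain, for the 4 widest domains without H3K4me3 (upper) and the 4 widest with it outside chromosome 8 (lower); black triangles are protein-coding start sites and marks are drawn up to 3 kb beyond the domain. FAIRE peaks, some of them end to end, are spread along the domains, 5 to 12 in each. H3K4me1 is missing from the domains of ACTN4, MICAL2, BCL2L1 and CAPN2.

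Among the 10 widest domains without H3K4me3, most also lacked H3K4me1. Beside ACTN4 and MICAL2, this held for UQCC1, an assembly factor of respiratory complex III (31.4 kb, 12 FAIRE peaks), EXT1, which polymerises heparan sulfate (30.4 kb, 8 FAIRE peaks), and MYH9, a non-muscle myosin heavy chain (26.5 kb, 7 FAIRE peaks). It also held for AOPEP, an aminopeptidase (24.2 kb, 8 FAIRE peaks), NEK6, a mitotic kinase (24.0 kb, 3 FAIRE peaks), and a domain 22.8 kb from COX4I2 (24.5 kb, 1 FAIRE peak). The domain near COX4I2 had the lowest H3K27Ac score of all wide domains (54.08) and ended just short of that of BCL2L1, which carried H3K4me3. The domain upstream of HMGA2 and that of NRP1 were the 2 with H3K4me1. Of these genes, ACTN4, NRP1 and AOPEP also had a start site in another wide domain that did carry H3K4me3.

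FAIRE peaks were strung along the domains. Some listed peaks meet end to end, as in the domains of ACTN4, LINC-PINT and CAPN2. Their numbers and spacings are therefore not those of separate open stretches. In all, 1816 of the 44697 FAIRE peaks (4.06%) met a wide domain, with a median of 3 in a domain (quartiles 2 and 4), and 361 domains (70.4%) held at least 3. Neighbouring FAIRE peak centres in a domain were 2409.5 bp apart at the median (quartiles 1206 and 4068 bp). The LINC-PINT and UQCC1 domains held the most, 12 each, followed by 11 in a 28.9 kb domain 7.49 kb from PRKCH, a protein kinase C gene, and 10 in a 21.2 kb domain of CLIP4. BCL2L1 came next with 9, the widest of 7 domains with that number, which CAPN2 and MICAL2 were also among.

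FAIRE peaks in wide domains were also taller than elsewhere. Their median height was 77.4 (quartiles 56.7 and 108), against 67.6 in H3K27Ac peaks under 10 kb and 51.1 outside H3K27Ac peaks. Height was not used to choose the domains. Those not under H3K4me3, 1301 in number, had a median height of 81.1, and the 515 under it one of 70.6. Both values were above the median of 61.9 over all FAIRE peaks.

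A FAIRE peak was missing from 7 wide domains, 6 of them with H3K4me3. The widest was that of HMGA2 itself, 17.8 kb with 3 H3K4me1 peaks, and it was followed by NFIB, a transcription factor gene (15.2 kb), ARHGAP29 (12.6 kb), INF2, a formin gene (11.9 kb), and FXR2, MPDU1 and SOX15, which share 10.3 kb. The HMGA2 gene thus stood in a wide domain with no FAIRE peak, whereas the 34.9 kb domain 149.7 kb from it held 7.

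Several domains spanned gene clusters. The FOSL1 domain and a 16.1 kb histone domain, with H2AC4, H3C1, H3C2, H4C1 and HIST1H4B, held 5 start genes each. Of the domains with 4, the widest were those of CD151, CRACR2B, POLR2L and TSPAN4 (21.9 kb), of the calcium-binding proteins S100A3, S100A4, S100A5 and S100A6 (19.7 kb), and of NEK8, RAB34, RPL23A and TLCD1 (14.2 kb). All of these carried H3K4me3. At least 2 genes started in 45 wide domains and a single gene in the rest of the 280 with a start site, which gave 328 genes, 1.71% of the 19222 protein-coding genes on these chromosomes.

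Acetylation reached further downstream of the most upstream start sites than upstream of them. Any other start site of the same gene lies on the downstream side of that point. The downstream arm was measured to the end of the domain, which can lie beyond the end of the gene. In 138 domains that held the most upstream start site of a single gene, it ran 3.73 kb upstream (quartiles 1.93 and 5.98) and 9.37 kb downstream (6.72 and 12.2) at the median. The downstream arm was the longer in 106 (76.8%, 69.1 to 83.1). The share was 81.2% among 5800 H3K27Ac peaks of 2 to 5 kb, with arms of 1.16 and 1.76 kb, and 74.2% among 960 of 5 to 10 kb, so the direction was not particular to wide domains. At BCL2L1 the arms were 1.13 and 38.7 kb, at CAPN2 4003 bp and 33.2 kb, at MYOF, a membrane repair protein gene, 2.33 and 28.5 kb, and at EPHA2 3.88 and 19.4 kb. The only H3K4me3 peak of the CAPN2 domain lay over a later start site, 14949 bp from the left edge, so its arms depend on the start site taken. LIF and ITGA3 were nearly even, with 13.0 and 12.7 kb and 13.4 and 13.0 kb.

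Around the start sites of these 138 genes, the marks were arranged in order. From 500 bp upstream to the start site, H3K4me3 peaks covered 92.1% of bases, FAIRE peaks 39.4% and H3K4me1 peaks 38.3%. At 5000 to 5500 bp downstream, H3K27Ac still covered 84.1%, H3K4me3 39.7% and H3K4me1 45.2%, and at 7500 to 8000 bp these were 71.6%, 19.1% and 47.8%. At both distances, which lie beyond the end of some short genes, coverage by H3K4me1 was above that by H3K4me3 while acetylation went on. In H3K27Ac peaks of 2 to 5 kb, H3K4me1 covered 8.22% of the 500 bp upstream of the start site, where H3K4me3 covered 95.5% and FAIRE 35.8%. Around the centres of domains without H3K4me3, H3K4me1 covered 66.4% and FAIRE 32.4% of the first 500 bp to the right.

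**Figure D4:**
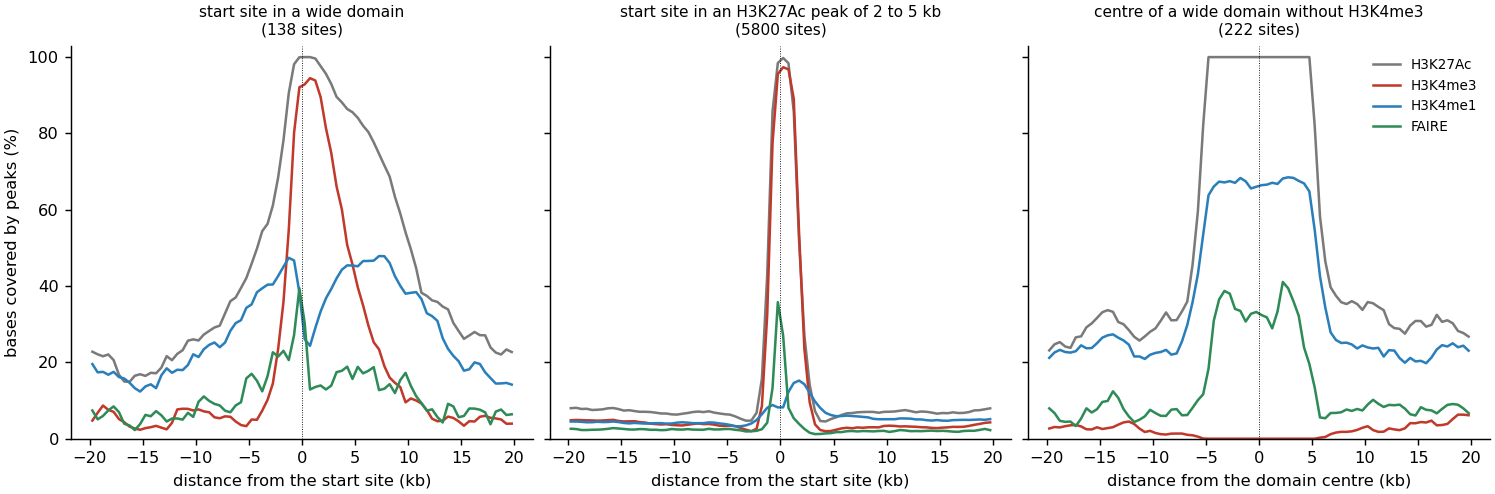
Percent of bases covered by peaks of each list (y axis) in steps of 500 bp against distance in kb, from the start site in 138 wide domains (left) and in 5800 H3K27Ac peaks of 2 to 5 kb (middle), both read in the direction of transcription, and from the centre of the 222 wide domains without H3K4me3 (right, along the chromosome). H3K27Ac reaches further downstream than upstream of the most upstream start sites in wide domains, and H3K4me1 is at 47.8% from 7500 to 8000 bp, where H3K4me3 is at 19.1%.

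Motifs were counted on both strands of the 300 bases around each FAIRE peak centre. The letters searched were TGACTCA (AP-1), GGAATG (TEAD), TGTGGT (RUNX), CCGGAAGT (ETS), CAGGTG (an E-box), GGGCGG (the GC box) and TGACGTCA (CRE), and some can share end letters with a neighbour, such as AP-1 with TEAD or the E-box. In wide domains, FAIRE windows not under H3K4me3 held AP-1 letters in 31.4% (28.9 to 33.9), TEAD in 25.7%, RUNX in 25.4%, the E-box in 18.8%, the GC box in 5.76%, ETS in 0.307% and CRE in 0.231%. Over all FAIRE windows not under H3K4me3 these shares were 35.2%, 22.95%, 27.3%, 17.0%, 4.17%, 0.307% and 0.279%. Over those in H3K27Ac peaks under 10 kb they were 37.1%, 24.8%, 27.6%, 16.1%, 4.2505%, 0.343% and 0.283%. The AP-1 share of open sites in wide domains away from H3K4me3 was thus below that of either set. It was about the same as the 31.5% of FAIRE windows outside H3K27Ac peaks, which were not split by H3K4me3. No difference was tested.

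Under H3K4me3 the letters in wide domains were intermediate. AP-1 was in 23.3% (19.9 to 27.1) of these windows and the GC box in 24.5% (21.0 to 28.4), whereas over all FAIRE windows under H3K4me3 the values were 14% and 39.1%. TEAD letters were in 23.7% against 16.0%, RUNX in 20.4% against 15.2% and ETS in 1.94% against 4.92%. The E-box was in 16.9% and CRE in 1.36%. Base composition differed too, with a median of 49.7% GC in the windows of wide domains under H3K4me3 and 53.3% in all windows under it (44.7% and 42.3% for windows not under it), and its part in these shares was not tested. A match describes letters, and binding was not measured.

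Of 21 lists of genes, 14 had at least 1 member that started in a wide domain. A start site of any transcript was counted, which need not be the most upstream one. Over all wide domains, 54.6% held such a start site and 33.5% a most upstream one. Regulators of plasminogen and coagulation had the highest share, 5 of 8 (62.5%, 30.6 to 86.3), beside 1.71% of all protein-coding genes. Among them were PLAU, the urokinase gene (11.7 kb), F3, the tissue factor gene (16.2 kb), and ANXA2 and S100A10 (10.4 kb), whose products form a plasminogen receptor. ANXA2 started in 2 wide domains, of which that with its most upstream start site (15.2 kb) had both H3K4 marks and the other (15.4 kb) had neither but 5 FAIRE peaks. H3K4me1 filled 100% of the PLAU domain. PLAUR, the urokinase receptor gene, had a peak of 4.46 kb. All 8 genes of this list had an H3K27Ac peak at a start site, as did 62.9% of all protein-coding genes. The lists were chosen with earlier results of these data known, so their shares are descriptions and not tests.

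Feedback inhibitors and targets of RAS-ERK signalling followed with 6 of 15 (40.0%, 19.8 to 64.3). The dual-specificity phosphatase genes DUSP1, DUSP4, DUSP5 and DUSP6 stood in domains of 10.4, 18.2, 14.1 and 12.2 kb, SPRY4 in 15.5 kb and PHLDA1 in 22.5 kb with 8 FAIRE peaks. All of these carried H3K4me3, and H3K4me1 was missing at DUSP1, DUSP4 and DUSP5. SPRY2, at 9.65 kb, fell just short of the threshold.

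Genes of adhesion and the cytoskeleton were also among the members. Of integrins and laminins, 6 of 16 (37.5%, 18.5 to 61.4) were inside, namely ITGA3 (26.4 kb), ITGB1 (11.3 kb), ITGB5 (12.4 kb), LAMA5 (19.1 kb), LAMB1 (12.4 kb) and LAMB3 (16.0 kb). H3K4me1 filled 96.2% of the ITGA3 domain and 100% of those of LAMB1 and LAMB3, but was missing at LAMA5. The actin list had 3 of 14 (21.4%, 7.57 to 47.6), ACTN4, MYH9 and PXN, which encodes the focal adhesion protein paxillin (16.8 kb, H3K4me3 over 10.7%). The MYH9 domain and the wider ACTN4 domain had no H3K4me3. Every member of both lists had an H3K27Ac peak at a start site, as did 62.9% of all protein-coding genes.

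Transcription factor lists had from 0 to 4 members inside, beside 1.71% of all protein-coding genes. YAP/TEAD genes had 4 of 13 (30.8%, 12.7 to 57.6). They were the coactivator gene WWTR1 (13.1 kb, 6 FAIRE peaks, H3K4me1 over 100% and no H3K4me3) and some target or partner genes. The latter were CCN1 (12.1 kb), ANKRD1 (14.1 kb) and AJUBA (12.2 kb). AP-1 genes had 2 of 10, FOSL1 and FOSL2 (13.3 kb), whereas JUN and JUNB had peaks of 7.39 and 7.12 kb. RUNX and ETS factors had 2 of 10, RUNX1 (16.5 kb, no H3K4me1) and ETS1 (10.9 kb). The EMT factors had 0 of 7, and the widest peak among them was the 7.42 kb of ZEB1.

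Signalling and growth genes came next, beside the same 1.71% of all protein-coding genes. Receptor kinases had 2 of 11 (18.2%, 5.14 to 47.7), EPHA2 (23.3 kb, 6 FAIRE peaks) and AXL (14.1 kb). EGFR had a peak of 6.03 kb at its start site and was the nearest gene to 2 wide domains, 29.9 kb and 15023 bp away. TGF-beta and SMAD genes had 2 of 15 (13.3%, 3.74 to 37.9), TGFBR2 (10.9 kb) and SMAD3 (16.0 kb). The cell cycle list had 3 of 12, MYC (11.1 kb), CCND1 (14.2 kb) and BCL2L1. Cytokines had 1 of 14 (7.14%, 1.27 to 31.5), LIF (25.7 kb, 5 FAIRE peaks). Luminal genes had 1 of 13 (7.69%, 1.37 to 33.3), the keratin gene KRT19 (11.4 kb). The intervals of the cytokine and luminal lists include the share of all protein-coding genes.

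Cytosolic ribosomal protein genes had 2 of 82 in wide domains (2.44%, 0.671 to 8.46, beside the 1.71% of all protein-coding genes), RPL23A (14.2 kb) and RPL26L1 (10.2 kb), although 79 of the 82 (96.3%, against 62.9% of all protein-coding genes) had an H3K27Ac peak at a start site. Replication-dependent histone genes had 4 of 64 (6.25%, 2.46 to 15), all in the single histone domain.

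No member lay in a wide domain for caveolae (0 of 7), NF-kB (0 of 10), mesenchymal and matrix genes (0 of 18), epithelial genes (0 of 17), lineage controls of liver, pancreas and neurons (0 of 11) or olfactory receptors (0 of 398). The upper ends of the intervals were 35.4%, 27.8%, 17.6%, 18.4%, 25.9% and 0.956%, and for the EMT factors 35.4%. All 10 NF-kB genes had an H3K27Ac peak at a start site, with a median width of 3.77 kb, and 14 of the 18 matrix genes (77.8%) had one, with a median of 3.92 kb, beside 62.9% and 3.27 kb for all protein-coding genes. CAV1, the caveolin gene, had 9905 bp, and VIM, which encodes the intermediate filament protein vimentin, had 8.53 kb. An H3K27Ac peak at a start site was present for 6 of the 7 caveolae genes (85.7%). The share was lower for EMT factors (3 of 7, 42.9%) and epithelial genes (7 of 17, 41.2%). It was lowest for lineage controls (3 of 11, 27.3%) and olfactory receptors (3 of 398, 0.754%). Absence from the wide class therefore did not mean absence of the mark for the NF-kB, matrix and caveolae lists. Most members of the EMT, epithelial, lineage control and olfactory lists lacked both.

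**Figure D5:**
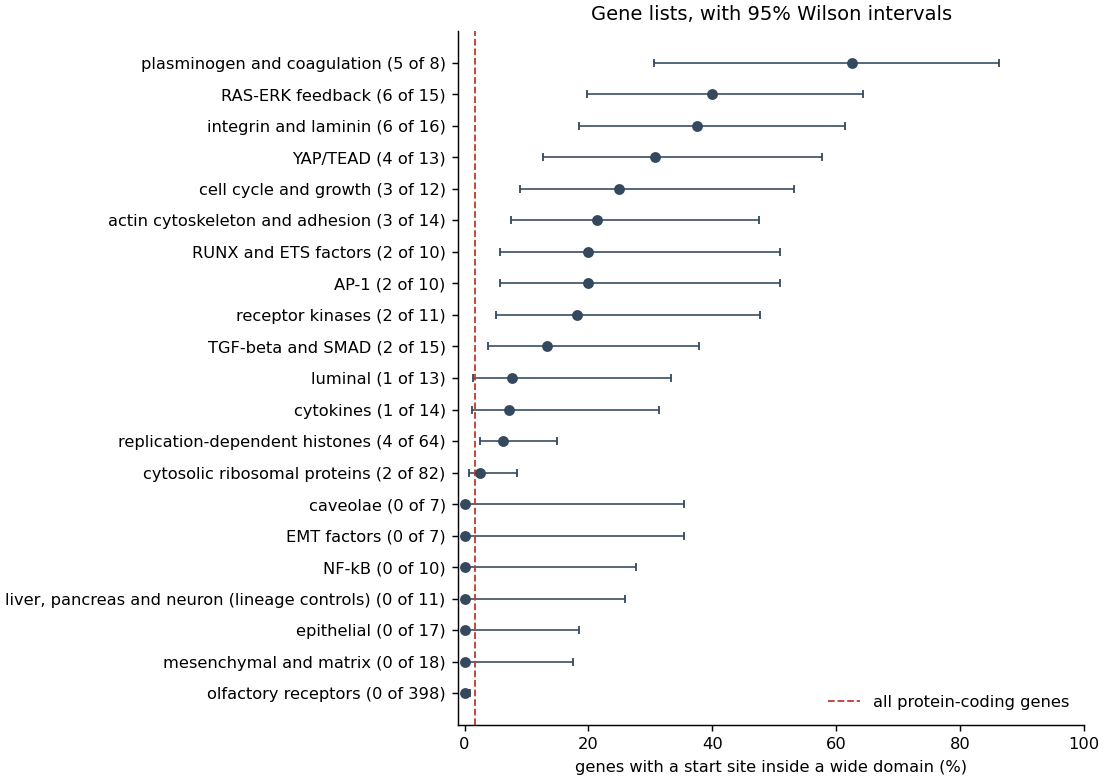
Percent of the genes of each list on chromosomes 1 to 22 with a protein-coding start site inside a wide H3K27Ac domain (x axis), with 95% Wilson intervals as bars and the number of genes beside each list. The dashed line is the 1.71% of all protein-coding genes, and the plasminogen and coagulation list reaches 62.5%. A start site of any transcript was counted, and the lists were chosen with earlier results of these data known.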

How the data were processed

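FAIRE-seq and ChIP-seq for H3K4me1, H3K4me3 and H3K27Ac had been performed in MDAMB231 cells, with 2 samples per assay and 2 inputs. The authors used BWA to place the reads on GRCh37, filtered out duplicate and poorly mapped reads, and combined the 2 samples of each assay. The submitters' processing notes also name TopHat, HOMER and hg19. The score of a histone peak was deposited by the authors as MACS gave it at default settings against input, as 10 times the −log10 of the p-value, and it stops at 3100 for many peaks. The height of a FAIRE peak is the signal the authors deposited from FindPeaks, with no stated normalization. Read depth was not analysed here, and the HMEC data were not analysed here.

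From these lists, 5 repeated FAIRE entries were dropped, and coordinates were treated as counted from 0 and printed as counted from 1. Overlap meant at least 1 shared base. Counting used pandas 2.3.3 and numpy 2.4.6 under python 3.11.15 and was checked against bedtools 2.31.1 on simulated data. Start sites and gene bodies came from GENCODE v44lift37, with the start sites of all transcripts of protein-coding genes, and sequence was read with pysam 0.24.0. The window for motifs was 300 bases and for printed sequences 200 bases, and no sequence from chromosome 8 is printed. A listed gene and a sequence window that the rules would name are not reported here. Shares have 95% Wilson intervals from scipy 1.17.1, which cover counting error only. Neighbouring peaks are not replicates, so no test was run. Figures were drawn with matplotlib 3.10.9.

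The named domains were the 10 widest, the 10 widest without H3K4me3, the 5 with most FAIRE peaks, up to 5 without a FAIRE peak, the 5 with most protein-coding genes starting inside, the 2 nearest the threshold on each side, and those with a start site of a listed gene. Ties went to the wider domain. The members and lists were chosen with earlier results of these data known. The 21 gene lists cover AP-1, YAP/TEAD, EMT, RUNX and ETS factors, mesenchymal and matrix genes, actin, caveolae, integrins and laminins, plasminogen and coagulation, receptor kinases, cytokines, NF-kB, RAS-ERK feedback, TGF-beta, cell cycle, epithelial and luminal genes, ribosomal proteins, histones, olfactory receptors and lineage controls. Histone genes were matched by current symbols, so HIST1H4B is not in that list, and listed genes on chromosome X were not counted.

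The alternatives were a width of 8 or 15 kb, merging of H3K27Ac peaks less than 1 kb apart, H3K4 peaks of score 100 or more, FAIRE peaks no lower than 61.1, the median height of the whole FAIRE list, the peak centre in place of 1 base, H3K4me3 within 1 kb, the most upstream start sites and the start sites of all genes. Domains with an H3K27Ac score of 1000 or more were added after seeing the data.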

Additional observations from a re-analysis of the deposited data

Results flagged for a closer look

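Chromosome X lies outside the chromosomes described, and its peaks hold signal of the same kind. It had 7 H3K27Ac peaks of 10 kb or more. The widest measured 38039 bp, held 8 FAIRE, 3 H3K4me3 and 1 H3K4me1 peaks, and lay 538473 bp from the nearest protein-coding start site, of DIPK2B. Another 2, of 10937 and 10513 bp, also had DIPK2B as nearest gene. Start sites of MSN, which encodes the actin linker moesin, of the ETS factor gene ELF4 and of FLNA, the filamin A gene, lay in peaks of 14083, 14352 and 10989 bp. The last, of 10465 bp, lay 5809 bp from MID1. All 7 held FAIRE peaks, 3 to 8 in each.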

How the results depend on the processing

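Each alternative setting was compared with the value as reported, in 60 comparisons. Of these, 22 were within the counting interval, within 1.5 times a count or unchanged at the digits printed, 37 were not, and 1 changed sign. For every value below, the cause was not tested.

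With a width of 8 kb or more there were 1071 domains, 96.7% with FAIRE, with 2.58 FAIRE peaks per 10 kb, H3K4me1 over 57.4% and H3K4me3 over 25.9% of length, and differences between domains without and with H3K4me3 of 0.478 FAIRE peaks per 10 kb and 21.2 percentage points of H3K4me1 coverage. With 15 kb or more there were 129, of which 68.2% had H3K4me3, 56.6% H3K4me1 and 64.3% a start site, with 2.34 FAIRE peaks per 10 kb, coverage of 37.8% and 26.7%, and differences of 0.102 and, reversed, -3.10. Merging of close peaks gave 2.44, 55.6%, 22.4%, 0.336 and 14.4 for the last 5 measures, and 740 domains. H3K4 peaks of score 100 or more lay in 62.0% of domains for H3K4me1, covered 46.2% and 23.9%, and gave differences of 0.410 and 16.6. The taller FAIRE peaks lay in 93.4% of domains, at 1.74 per 10 kb with a difference of 0.427. With peak centres the FAIRE difference was 0.377, and with H3K4me3 within 1 kb the differences were 0.380 and 14.8. A start site was inside 33.5% of domains with the most upstream sites and 69.0% with those of all genes. With an H3K27Ac score of 1000 or more, chosen after seeing the data, 479 domains were left, with 2.54 FAIRE peaks per 10 kb, coverage of 56.2% and 24.5%, and a FAIRE difference of 0.445.

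Leaving out a sample was not possible, since a single list was deposited for each assay. No paired analysis was possible because the lists carry no sample. Intervals leave out biological and technical variation, widths depend on the peak caller and the depth, and a missing peak means only that none was listed. Copy number in this line was not analysed here.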

Other observations

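Wide domains also lay at non-coding genes beyond those described, and the ones named here were chosen after their values were seen. A 25.1 kb domain on chromosome 11 held the start site of MALAT1, an abundant nuclear RNA, with 8 FAIRE peaks, H3K4me3 over 51.1% of its length and no H3K4me1. At MIR23A and MIR27A, microRNAs made from a common transcript, the domain measured 22.3 kb, with 3 FAIRE peaks, H3K4me3 over 62.7% and H3K4me1 over 40.7%. A 27.4 kb domain with LINC00973, 58.1 kb from DCBLD2, held 9 FAIRE peaks under nearly continuous H3K4me1 (93.1%), with H3K4me3 over 36.5%. At MIR100HG, the widest domain was followed after 729 bp by another of 19.2 kb, in which H3K4me1 covered 96.1%, so the mark that was sparse in the first filled the second. In all, 16 wide domains lay less than 1 kb from another.

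A low H3K27Ac score went with great width in a few domains, although score chose none of them. Of the 513, 17 had a score under 500, and their median width was 19.4 kb against 12.3 kb for all. All 17 held a FAIRE peak, 13 held H3K4me3 and 4 held H3K4me1. They included both ACTN4 domains (239.59 and 468.21), BCL2L1 (128.68), CAPN2 (167.49), SLC37A2 (177.34) and SMURF2, a ubiquitin ligase gene (99.37). The lowest score, 54.08, belonged to the domain 22.8 kb from COX4I2, which ended 44 bp from that of BCL2L1. Domains with H3K4me1 reached the score of 3100 in 80.4% of cases and those without it in 56.1%.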
